A study of Mus musculus with 12 samples.

Results

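Cholesterol synthesis, sterol uptake and sterol sensing were followed in mouse embryonic fibroblasts through 28 listed genes. A gene counted as measured when a probe set was annotated to its symbol alone, and the probe set with the highest mean over the 12 arrays stood for it. This gave 27 members of the 19938 genes measured in all, since Acat2 was not matched to any such probe set. The members comprise 19 enzymes of synthesis, 5 genes of sterol sensing and 3 genes of sterol movement. The genes were listed by pathway membership, with earlier results of these data known.

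The fibroblasts were grown in 10% serum to passage 4 and then held in 0.1% serum for 72 hours to stop division, in all groups alike. The 4 groups hold 3 arrays each: cells homozygous for the S allele of Rb1 (S/S), Rb1 +/+ cells matched to them (the S-set wild type), cells homozygous for the L allele (L/L), and Rb1 +/+ cells matched to those (the L-set wild type). The product of Rb1 is the retinoblastoma protein, known for repressing cell division genes; how the S and L alleles alter it is not stated in the labels. The labels give no embryo age and do not say whether replicates are separate embryos or cultures, so p-values measure the spread between these samples only, and part of that spread may be technical. In the L-set wild type and in L/L, where 1 array of each is of male cells and the others are of female cells, the replicates come from more than 1 embryo.

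Cells make cholesterol by condensing acetyl groups into mevalonate, turning mevalonate into isoprenoid units, joining these into squalene, and closing and trimming squalene into sterol. Most of these enzymes are under the control of SREBP2, a transcription factor anchored in the endoplasmic reticulum. When membrane sterol is plentiful, the escort protein SCAP is held there by INSIG proteins, and when sterol falls, SCAP carries SREBP2 to the Golgi, where it is cut and freed to enter the nucleus. Serum lipoproteins are a main source of sterol for cultured fibroblasts. SREBP proteins are known to act on promoters together with NF-Y, which binds CCAAT boxes, and Sp1, which binds GC boxes.

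Promoter sequence shows which of these letters stand near the start of the members. The RefSeq table (build GRCm38.p6) held a window of 250 bases before to 50 after the start for 22 of the 27 measured members. Fdps, Fdft1, Sqle, Stard4 and Npc1 had no entry, so the shares below do not cover them. Both strands were searched. CCAAT was present in 21 of the 22 (95.5%), the exception being Scap, against 41.1% of the 27025 genes in the table and 41.7% of the 15614 of those that are on the array. GGGCGG, a GC box, was in 20 of 22 (90.9%), all but Pmvk and Ggps1, against 38.2% of genes in the table and 52.9% of those on the array. CACGTG, an E-box that SREBP proteins can also bind, was in 5 of 22 (22.7%: Hsd17b7, Sc5d, Dhcr7, Insig1 and Scap) against 8.09% and 9.50%. The exact sterol regulatory element letters TCACCCCAC were in 1 of 22, Hmgcs1, against 0.614% and 0.634%. These matches describe letters in a window and are not measured binding sites. The 150 bases before the start are printed for 5 genes: Hmgcs1 and Scap, which passed the test between the wild types, Idi1, which had the largest difference there, and Lbr and Ebp, with the smallest p in L/L. Capitals mark the sterol regulatory element letters, the CCAAT box (which reads ATTGG when on the other strand) and the E-box.
Hmgcs1: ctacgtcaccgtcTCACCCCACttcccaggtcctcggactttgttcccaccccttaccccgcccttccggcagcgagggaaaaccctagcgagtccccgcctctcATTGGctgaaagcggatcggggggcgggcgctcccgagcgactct
Idi1: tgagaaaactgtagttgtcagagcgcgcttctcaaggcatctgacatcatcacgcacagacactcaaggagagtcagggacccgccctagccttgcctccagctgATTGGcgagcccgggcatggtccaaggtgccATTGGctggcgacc
Lbr: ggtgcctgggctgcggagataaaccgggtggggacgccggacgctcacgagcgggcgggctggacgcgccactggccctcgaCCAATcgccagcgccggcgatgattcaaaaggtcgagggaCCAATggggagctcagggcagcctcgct
Ebp: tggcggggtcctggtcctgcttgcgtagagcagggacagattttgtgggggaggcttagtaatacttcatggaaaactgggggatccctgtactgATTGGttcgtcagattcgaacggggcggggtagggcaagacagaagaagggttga
Scap: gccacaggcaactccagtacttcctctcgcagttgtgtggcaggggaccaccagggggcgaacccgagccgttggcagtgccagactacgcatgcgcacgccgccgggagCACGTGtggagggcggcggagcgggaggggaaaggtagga

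The Hmgcs1 stretch lies at chr13:119690201-119690350 on the plus strand, with the sterol regulatory element letters beginning 137 bases and the CCAAT box 45 bases before the start. The Idi1 stretch is chr13:8885456-8885605 (plus), with CCAAT boxes 45 and 14 bases before the start. The Lbr stretch is chr1:181842402-181842551 (minus), with boxes at 68 and 28 bases, and the Ebp stretch is chrX:8193513-8193662 (minus), with a box at 55 bases. Scap has more than 1 start in the table. The stretch shown is chr9:110333206-110333355 (plus), where an E-box begins 40 bases before the start. A stretch before another start, chr9:110333138-110333287 (plus), is not shown and holds none of the marked letters.

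Levels are log2 RMA values, so a difference of 1 is a 2-fold change, and levels of different probe sets are not set against each other. Every measured member had a mean of at least 6, and the lowest single value was 6.10, for Pmvk; the Y-linked genes read 3.82 to 5.51 in the 10 arrays of female cells. The other 2 arrays, replicate 1 of the L-set wild type and of L/L, were of male cells, and Ebp and Nsdhl are X-linked. Fibroblast markers were high on every array (mean of 10 genes 12.07 to 12.37). Array 1 of the S-set wild type stood apart: its residual SD around the group means was 0.325 against 0.0933 to 0.193 on the other 11 arrays, and its correlation with them was 0.955 to 0.974. It touches every result that uses that group. The fit shares an estimate of each gene's spread over all 12 arrays, so that array also enters the p-values of L/L. Values without it are given for the lists and for members whose value it moves most.

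No member passed the test in either mutant (limma, Benjamini-Hochberg adjusted p under 0.05 over all genes). In the L/L cells 24 of the 27 members lay above their wild type by small amounts, with a median of 0.22 on the log2 scale against 0.02 for all genes. In the S/S cells 13 lay above and 14 below, with a median of -0.004 against -0.036 for all genes. In the unmutated cells, the L-set wild type had higher Hmgcs1 and lower Scap than the S-set wild type, and both passed. In bulk RNA, fewer cells of a type and less RNA per cell cannot be told apart.

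**Figure D1:**
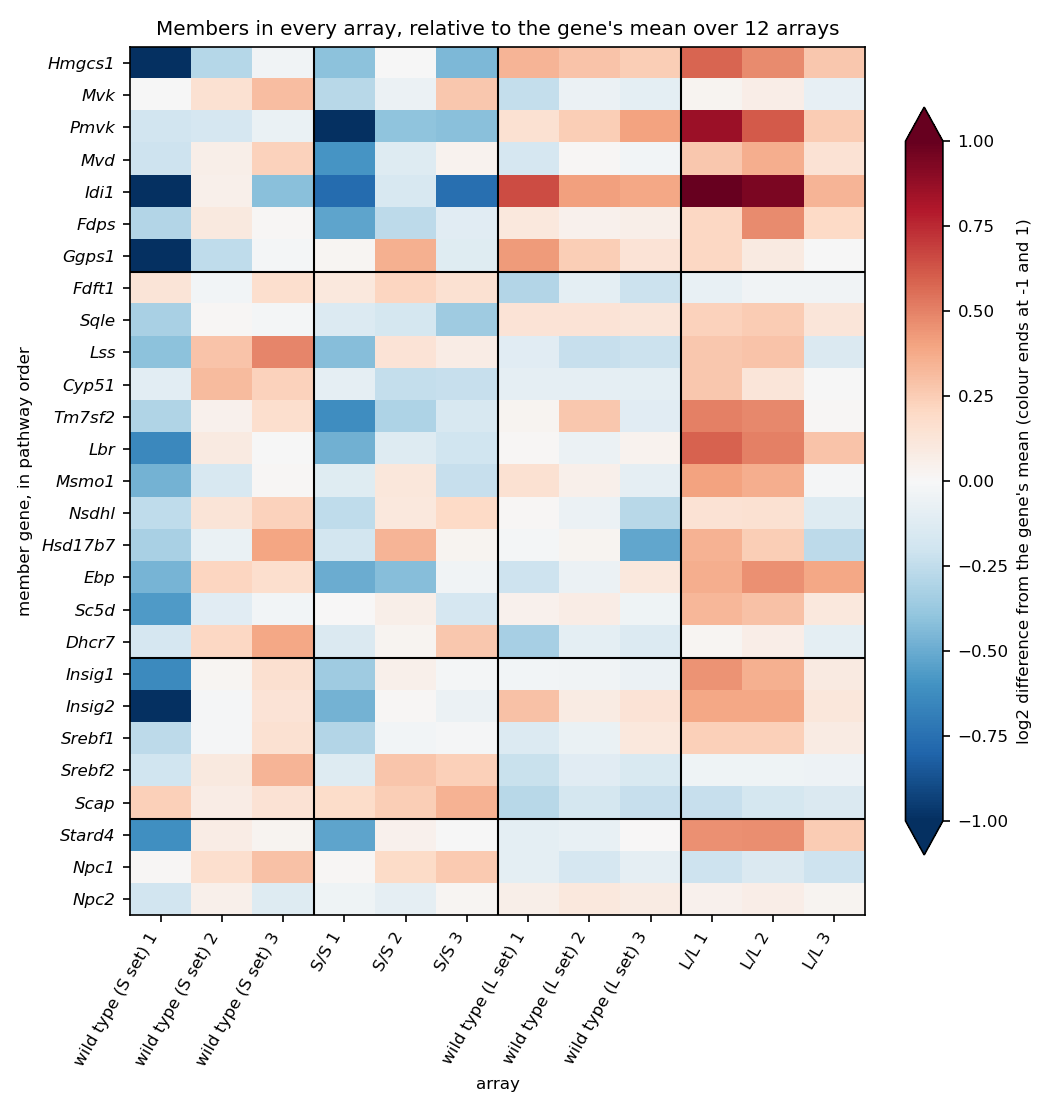
Level of each of the 27 members on each of the 12 arrays, drawn as the log2 deviation from that gene's mean over all arrays, with genes in pathway order (rows) and arrays by group (columns). Array 1 of the S-set wild type is the lowest of its group in 25 of the 27 genes, and array 3 of L/L is the lowest of its group in 24.

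The early steps of synthesis lead from acetyl groups to farnesyl and geranylgeranyl diphosphate. Of the 7 genes measured here, 3 lay above and 4 below their wild type in S/S, and 6 above and 1 below in L/L. The medians were -0.17 and 0.22 respectively. Hmgcs1, the synthase that makes the precursor of mevalonate, read 9.61, 10.33 and 10.58 in the S-set wild type and 10.21, 10.61 and 10.17 in S/S. Its L-set wild-type values were 10.96, 10.90 and 10.86, and its L/L values 11.20, 11.09 and 10.89. Each mutant overlapped its own wild type, and all 6 arrays of the L set were above all 6 of the S set.

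Pmvk, which adds the next phosphate to mevalonate phosphate, read 7.20, 7.23 and 7.33 in the S-set wild type and 6.10, 6.99 and 6.98 in S/S. All 3 mutant arrays lay below all 3 wild-type arrays, and the first mutant array was the farthest away. The difference was -0.56 (SE 0.21, adjusted p = 0.407), and -0.27 without that first mutant array. In the L set Pmvk read 7.55, 7.64 and 7.80 in the wild type and 8.25, 8.01 and 7.65 in L/L, a difference of 0.31 between groups that overlapped. Every L-set array was above every S-set array. Pmvk was the only member whose S/S arrays did not overlap their wild type, 1 of 27 below, where 6.29% of all genes lay wholly below. None of the 27 lay wholly above, where 5.49% of all genes did.

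Mvd, the decarboxylase that makes isopentenyl diphosphate, read 9.25, 9.52 and 9.69 in the S-set wild type and 8.87, 9.33 and 9.49 in S/S. It read 9.29, 9.47 and 9.43 in the L-set wild type and 9.73, 9.82 and 9.60 in L/L, where every mutant array was above every wild-type array. The L/L difference was 0.32 (SE 0.16, adjusted p = 1). Fdps, which joins isoprenoid units into farnesyl diphosphate, also had all L/L arrays above the wild type, at 11.19 to 11.46 against 11.03 to 11.10. Mvk, mevalonate kinase, overlapped in both sets, with differences of -0.18 in S/S and 0.14 in L/L.

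Idi1, the isomerase that interconverts the isoprenoid units, varied most among the S-set wild-type arrays, at 7.65, 9.46 and 8.99. The S/S values were 8.64, 9.25 and 8.65, the L-set wild-type values 10.06, 9.82 and 9.79, and the L/L values 10.47, 10.35 and 9.75. Both mutants overlapped their wild types, and every L-set array was above every S-set array. A second Idi1 probe set followed it array by array, at 7.57, 9.36 and 8.93 in the S-set wild type and 10.02, 9.82 and 9.78 in the L-set wild type.

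Ggps1 makes geranylgeranyl diphosphate, which is attached to proteins and does not lead to sterol. It read 7.91, 8.76 and 8.99 in the S-set wild type and 9.03, 9.37 and 8.89 in S/S, a difference of 0.55 (SE 0.22, adjusted p = 0.439). The groups overlapped through the third array of each, and the difference was 0.225 (adjusted p = 0.592) without array 1 of the S-set wild type. In the L set it read 9.44, 9.26 and 9.15 in the wild type and 9.22, 9.10 and 9.01 in L/L, a difference of -0.17. Among the 19 synthesis enzymes it alone had a difference below 0 in L/L.

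The later steps run from squalene to cholesterol. All 12 of their genes lay above the wild type in L/L, by 0.07 (Sqle) to 0.46 (Lbr) with a median of 0.22. In S/S 4 of the 12 lay above and 8 below, from -0.34 (Tm7sf2) to 0.20 (Sc5d), around a median of -0.09. The first of these enzymes, Fdft1 (squalene synthase), differed by 0.16 in L/L and 0.07 in S/S. Sqle, the epoxidase that follows, differed by 0.07 and -0.11, and Lss, which closes the ring to lanosterol, by 0.32 and -0.19.

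Cyp51, the demethylase that acts on lanosterol, had the smallest p of the members in S/S. It read 10.16, 10.58 and 10.50 in the S-set wild type and 10.18, 10.03 and 10.04 in S/S. Only the first wild-type array fell within the mutant range. The difference was -0.33 (SE 0.12, adjusted p = 0.395), a level 1.26-fold lower. In the L set Cyp51 read 10.18, 10.18 and 10.17 in the wild type and 10.54, 10.39 and 10.26 in L/L, so that all mutant arrays were above all wild-type arrays, by 0.22 on average.

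Tm7sf2 and Lbr encode sterol reductases that can carry out the same step, and Lbr also anchors heterochromatin at the nuclear envelope. Tm7sf2 read 9.16, 9.50 and 9.63 in the S-set wild type and 8.84, 9.15 and 9.30 in S/S, a difference of -0.34 (SE 0.17, adjusted p = 0.521) between overlapping groups. It read 9.49, 9.73 and 9.35 in the L-set wild type and 9.96, 9.94 and 9.47 in L/L, again overlapping. Lbr read 8.02, 8.76 and 8.66 in the S-set wild type and 8.19, 8.54 and 8.47 in S/S. In the L set it read 8.68, 8.61 and 8.70 in the wild type and 9.26, 9.17 and 8.95 in L/L. The L/L groups did not overlap, and the difference of 0.46 (SE 0.17, adjusted p = 1), 1.38-fold, was the largest among the members in that mutant.

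Ebp, the isomerase that moves the ring double bond, read 8.80, 9.48 and 9.43 in the S-set wild type and 8.77, 8.84 and 9.23 in S/S. It read 9.06, 9.21 and 9.37 in the L-set wild type and 9.63, 9.72 and 9.65 in L/L, with no overlap there and a difference of 0.45 (SE 0.17, adjusted p = 1). Of the remaining later enzymes, Sc5d (the desaturase) and Dhcr7 (the last reductase) also had all L/L arrays above the wild type, with differences of 0.22 and 0.19. Msmo1, Nsdhl and Hsd17b7, which remove methyl groups from the sterol ring, differed by 0.21, 0.16 and 0.28 in L/L with overlapping groups. In S/S these 5 enzymes differed by -0.09 (Dhcr7) to 0.20 (Sc5d).

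**Figure D2:**
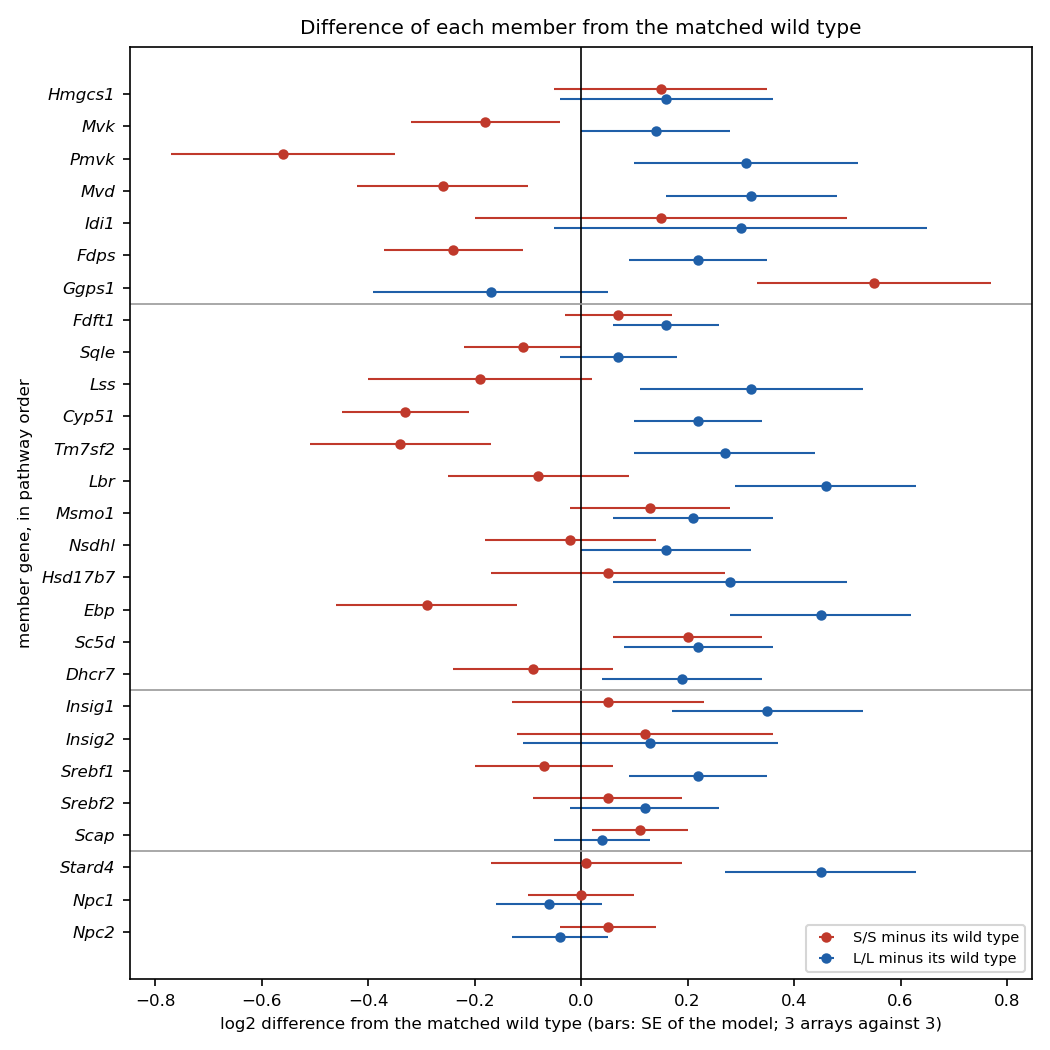
Difference of each mutant from its wild type (log2) for the 27 members in pathway order, with bars of 1 standard error from the fit. The L/L points lie above 0 for all members but Ggps1, Npc1 and Npc2, while the S/S points lie on both sides.

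The 5 sensing genes all lay above the wild type in L/L, with a median of 0.12. Insig1, which retains SCAP in the endoplasmic reticulum and is itself induced by SREBP2, read 11.13, 11.12 and 11.10 in the L-set wild type and 11.61, 11.51 and 11.25 in L/L. The groups did not overlap, and the difference was 0.35 (SE 0.18). Srebf2, the gene of SREBP2, was also separate, at 10.71 to 10.82 in the wild type and 10.88 to 10.89 in L/L. Srebf1, whose products drive mainly fatty acid genes, differed by 0.22 with overlap. In S/S the 5 genes differed by -0.07 (Srebf1) to 0.12 (Insig2), each with overlap.

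Insig2, a second retention protein that is less responsive to SREBP2, read 8.17, 9.17 and 9.32 in the S-set wild type and 8.71, 9.19 and 9.12 in S/S. It read 9.47, 9.26 and 9.32 in the L-set wild type and 9.57, 9.57 and 9.29 in L/L. Both mutants overlapped their wild types, and the first S-set wild-type array was the lowest of the 12. Scap, the escort, read 11.00, 10.84 and 10.91 in the S-set wild type and 10.95, 11.01 and 11.11 in S/S. It read 10.49, 10.59 and 10.53 in the L-set wild type and 10.53, 10.59 and 10.62 in L/L, so that both L-set groups were below both S-set groups and neither mutant was separate from its own wild type.

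Among the movement genes, Stard4, a soluble carrier of sterol between membranes, read 7.77, 8.46 and 8.41 in the S-set wild type and 7.86, 8.43 and 8.38 in S/S. It read 8.29, 8.31 and 8.39 in the L-set wild type and 8.84, 8.85 and 8.64 in L/L. The L/L groups did not overlap, with a difference of 0.45 (SE 0.18, adjusted p = 1), against 0.01 in S/S. Npc1 and Npc2, which together release sterol from the lysosome, differed by -0.06 and -0.04 in L/L, with overlap in both mutants.

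**Figure D3:**
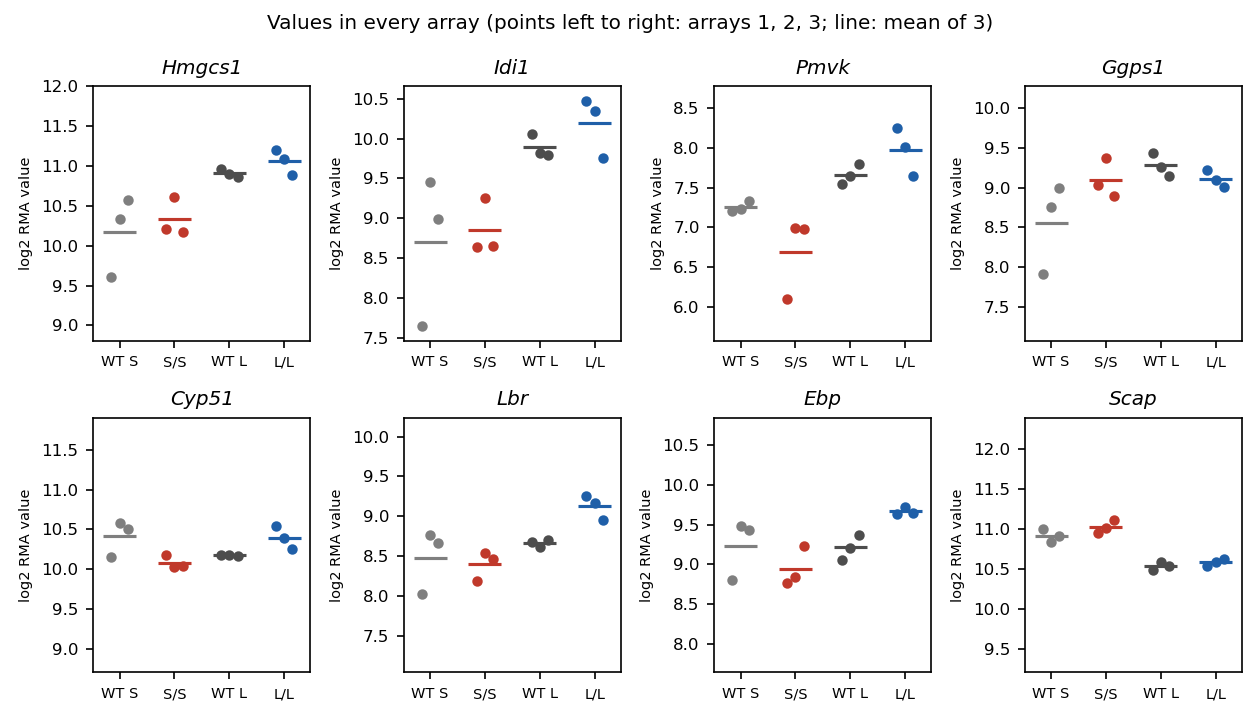
Log2 level on every array for 8 members, 3 points a group with the group mean as a line. The panels span the same number of log2 units. L/L is separate from its wild type for Cyp51, Lbr and Ebp, and S/S for Pmvk. The L set is separate from the S set for Hmgcs1, Idi1, Pmvk and Scap.

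Taken over the whole list, the L/L comparison had 0 members passing, where 8 of all genes (0.0401%) passed. At an unadjusted p under 0.05 it had 3 members (Lbr, Ebp and Stard4; 11.1%) against 3.27% of all genes. Leaving out array 1 of the S-set wild type kept the L/L differences and changed their p-values through the shared spread. The comparison then had 7 members at an unadjusted p under 0.05, against 1242 of all 19938 genes. No member passed, where 26 genes did, and the smallest adjusted p of the members was 0.14, for Lbr. All 3 L/L arrays lay above all 3 wild-type arrays in 11 of 27 members (40.7%: Mvd, Fdps, Fdft1, Cyp51, Lbr, Ebp, Sc5d, Dhcr7, Insig1, Srebf2 and Stard4), against 9.71% of all genes, and in none below, against 5.10%. Fdft1 was separate on its chosen probe set only. Its second probe set overlapped, at 11.55, 11.80 and 11.66 in the L-set wild type and 11.78, 11.79 and 11.91 in L/L. The 24 members above 0 are 88.9%, against 55.9% of all genes. The members share regulators, so their counts are not independent observations.

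The separation came mostly from 2 of the 3 L/L arrays. Arrays 1 and 2 both lay above every wild-type array in 23 of 27 members, against 15.6% of all genes. Array 3 did so in 12 of 27, against 31.2% of all genes. Array 3 was the lowest of its group in 24 members, by a median of 0.20 below the mean of the other arrays where all genes were level at 0.00. The mean deviation of the 19 synthesis genes was 0.35, 0.33 and 0.07 on the L/L arrays and 0.03, 0.06 and -0.02 on the wild-type arrays. Without the 2 male arrays the median of the members was 0.15, with 24 above 0. No member then had an unadjusted p under 0.05, where 367 of all 19938 genes did.

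The S/S comparison likewise had 0 members passing, where 24 of all genes (0.120%) passed. At an unadjusted p under 0.05 it had 3 members (Cyp51 and Pmvk lower, Ggps1 higher; 11.1%) against 10.1% of all genes, a share close to the background. The 13 members above 0 compare with 42.4% of all genes. After quantile normalization 8 members lay above 0 (median -0.063), and after median centring 14 (median 0.017). The direction over the list rested on array 1 of the S-set wild type, the lowest of its group in 25 of 27 members against 42.6% of all genes. Without it, 5 members lay above 0 and 22 below, and the median was -0.22 against -0.01 for all genes. Cyp51 then differed by -0.46, Pmvk by -0.59, Ebp by -0.51, Tm7sf2 by -0.47 and Lss by -0.45. Sqle differed by -0.22, Dhcr7 by -0.245 and Srebf1 by -0.18, each farther below 0 than with that array. The 5 members still above 0 were Ggps1, Fdft1, Sc5d, Scap and Npc2, at 0.225, 0.09, 0.04, 0.15 and 0.005. The smallest adjusted p in that fit was 0.09, for Cyp51. An unadjusted p under 0.05 was found for 9 of the 27 members, against 2221 of all 19938 genes. In all, 8 members changed sign: Idi1 from 0.15 to -0.38, Hmgcs1 from 0.15 to -0.13, Insig2 from 0.12 to -0.24, Stard4 from 0.01 to -0.22, and Msmo1, Hsd17b7, Insig1 and Srebf2. Array 1 of S/S, the lowest of its own group in 20 members against 41.1% of all genes, weighed the other way: without it 18 members lay above 0 and the median was 0.07. Leaving out array 2 or 3 of the S-set wild type also put the median above 0, at 0.02 and 0.06 with 16 and 18 members above, and leaving out array 2 or 3 of S/S put it at -0.08 and -0.06 with 8 and 11.

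The test of the difference between the mutant effects, S/S minus L/L, passed for 0 members, where 3 genes (0.0150%) passed. At an unadjusted p under 0.05 it had 8 members (Pmvk, Mvd, Fdps, Ggps1, Cyp51, Tm7sf2, Lbr and Ebp; 29.6%) against 6.50% of all genes. The difference was above 0 in 4 members, against 39.8% of all genes, and its median was -0.23 against -0.06. Its smallest p was for Cyp51 (-0.55, SE 0.17, adjusted p = 0.619), followed by Ebp (-0.74, SE 0.24, adjusted p = 0.661) and Pmvk (-0.87, SE 0.30, adjusted p = 0.682). Ggps1 lay the other way at 0.72 (SE 0.31, adjusted p = 0.764), and at 0.40 (adjusted p = 0.585) without array 1 of the S-set wild type. Without that array the median was -0.39, against -0.02 for all genes. The test then had 14 members at an unadjusted p under 0.05, against 1733 of all 19938 genes, and none passing. The standard errors of the members in the mutant comparisons ran from 0.09 to 0.35, which are as large as many of the members' differences.

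The wild-type groups share a genotype, and their comparison shows how far the S and L sets differ without the mutations. It uses the same wild-type arrays as the mutant comparisons, so it is not independent of them. It passed for 2 of 27 members, against 8.71% of all genes. Hmgcs1 was higher in the L-set wild type by 0.73 (SE 0.20, adjusted p = 0.0415), or 1.66-fold, and Scap was lower by 0.38 (SE 0.09, adjusted p = 0.0246), or 1.30-fold. Neither call was stable to leaving out arrays. Hmgcs1 passed in 3 of the 12 fits that each left out 1 array, with 0.45 and an adjusted p of 0.0549 without array 1 of the S-set wild type. Scap passed in 9 of 12, the exceptions leaving out an L-set wild-type array. Without the male arrays neither passed (adjusted p = 0.175 and 0.161).

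The largest difference between the wild types was that of Idi1, at 1.19 (SE 0.35, adjusted p = 0.0541) or 2.29-fold, which did not pass. Without array 1 of the S-set wild type it was 0.67 (adjusted p = 0.0807). Ggps1 differed by 0.73 (SE 0.22, adjusted p = 0.0588) and Insig2 by 0.46 (SE 0.24, adjusted p = 0.266). Without that array Ggps1 differed by 0.41 (adjusted p = 0.0858) and Insig2 by 0.10 (adjusted p = 0.729). Fdft1 differed by -0.29 (adjusted p = 0.0779), and its second probe set, tested among all probe sets, by -0.43 (adjusted p = 0.0317). At an unadjusted p under 0.05 there were 8 members (29.6%), against 23.7% of all genes. The L-set wild-type arrays were wholly above in 6 members (Hmgcs1, Pmvk, Idi1, Ggps1, Sqle and Npc2), against 11.5% of all genes, and wholly below in 4 (Mvk, Fdft1, Scap and Npc1), against 16.1%. In all, 15 members were above 0, against 38.0% of all genes, with a median of 0.09 against -0.07. Without array 1 of the S-set wild type the median of the members was -0.11 and 5 passed, where 2078 of all 19938 genes did. All 5 were lower in the L-set wild type: Scap, Cyp51, Lss, Dhcr7 and Npc1. Without any 1 of the L-set wild-type arrays 0 members passed, where 525 to 1098 of all 19938 genes did. Each of those fits had 6 of 27 members at an unadjusted p under 0.05, against 3551 to 4037 of all genes.

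**Figure D4:**
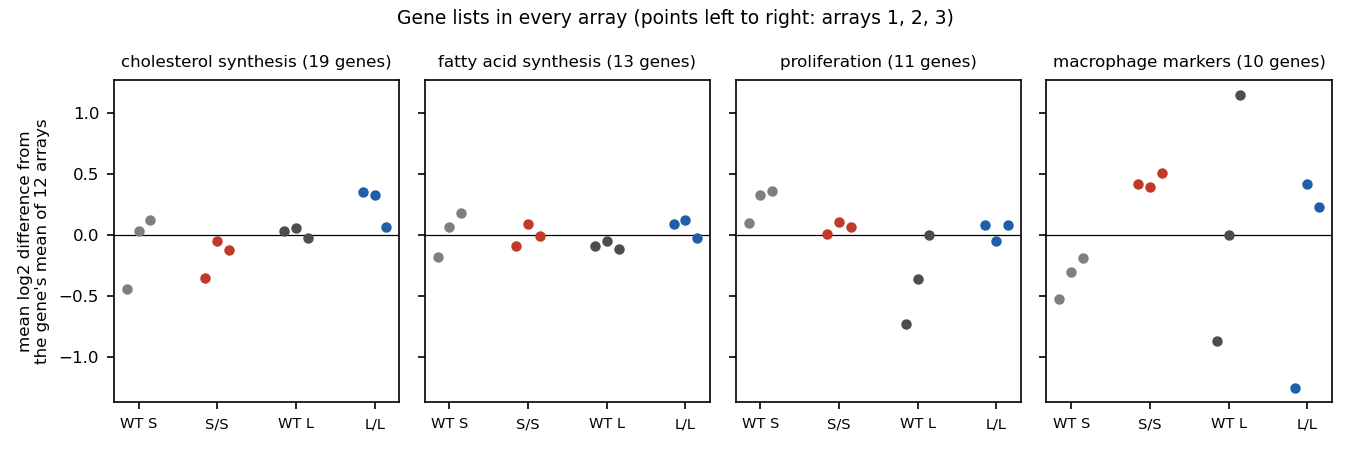
Mean log2 deviation from each gene's mean over all arrays, on each array, for the synthesis genes, fatty acid synthesis genes, proliferation genes and macrophage markers, with points grouped by genotype. The synthesis genes are highest on L/L arrays 1 and 2 (0.35 and 0.33) and lowest on array 1 of the S-set wild type (-0.44), and macrophage markers spread widely within both L-set groups.

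Genes of neighbouring pathways were described in the same way, and none of them passed in either mutant. The 13 genes of fatty acid synthesis and desaturation, mostly targets of SREBP1, were the related list nearest to the members in L/L. Of these, 11 of 13 lay above 0 (all genes 55.9%) with a median of 0.18, and 7 had all L/L arrays above the wild type (all genes 9.71%). The smallest p there was for Fads1, a desaturase of polyunsaturated fatty acids, at 11.85, 11.97 and 11.92 in the wild type and 12.16, 12.18 and 12.12 in L/L (0.24, SE 0.09, adjusted p = 1). In S/S 5 of the 13 lay above 0, with a median of -0.06, and 1 of 13, with a median of -0.165, without array 1 of the S-set wild type. The smallest p in S/S was for Lpin1, which makes diacylglycerol (0.42, adjusted p = 0.365; 0.24 without that array). Between the wild types Scd1, the desaturase that makes oleate, was lower in the L set by 0.36 (adjusted p = 0.0422), and the call held without that array (adjusted p = 0.0213).

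Of 12 genes of sterol uptake and transfer, 5 lay above 0 in L/L and 9 in S/S (4 without array 1 of the S-set wild type). Scarb1, a receptor for high-density lipoprotein, had the smallest p in L/L (0.47, SE 0.15, adjusted p = 0.783), and Scp2, a sterol carrier, in S/S (-0.48, adjusted p = 0.501; -0.76 and 0.128 without that array). In the L-set wild type Scarb1 was lower by 0.58 (adjusted p = 0.0304) and Lrp8, a lipoprotein receptor, lower by 0.65 (adjusted p = 0.0177), and both calls held without that array (adjusted p = 0.0174 and 0.0026). Among 6 genes of sterol efflux and liver X receptor action 1 lay above 0 in L/L and 2 in S/S (1 without that array). The smallest p values were for the sterol exporters Abca1 in L/L (-0.35, adjusted p = 1) and Abcg1 in S/S (0.40, adjusted p = 0.516).

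Of 7 genes of sterol storage and oxysterols, 3 lay above 0 in L/L and 5 in S/S (4 without array 1 of the S-set wild type). Ch25h, which makes an oxysterol that holds SREBP2 inactive, read 8.73, 9.25 and 9.30 in the S-set wild type and 9.65, 9.46 and 9.61 in S/S. The groups did not overlap, and the difference was 0.48 (SE 0.14, adjusted p = 0.288), or 0.30 (adjusted p = 0.265) without that array. In L/L the smallest p was for Cyp27a1, a sterol hydroxylase (0.15, adjusted p = 1). Among 7 genes of SREBP cleavage and INSIG turnover 1 lay above 0 in L/L and 4 in S/S (0 without that array), with the smallest p for Rnf139 (-0.23, adjusted p = 1) and Vcp (-0.13, adjusted p = 0.737; -0.27 without that array). Of 9 genes on other branches from farnesyl diphosphate, 3 lay above 0 in L/L and 6 in S/S (1 without that array), with the smallest p for Coq2 (0.22, adjusted p = 1) and Pggt1b (0.39, adjusted p = 0.576; 0.058 without that array). Pggt1b, a subunit of the enzyme that attaches geranylgeranyl groups, was higher in the L-set wild type by 1.00 (adjusted p = 0.0276), or 0.67 (adjusted p = 0.0401) without that array.

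Other features of the cultures moved with the groups. Of 11 proliferation genes, 10 lay above 0 in L/L (all genes 55.9%) and 1 passed (all genes 0.0401%), Mcm6, a subunit of the replication helicase (1.17, SE 0.17, adjusted p = 0.0308). In S/S 10 of the 11 lay below 0, with a median of -0.22, and 4 had all S/S arrays below the wild type (all genes 6.29%), though none passed. Without array 1 of the S-set wild type 0 of the 11 lay above 0 in S/S, with a median of -0.26. The mean level of the 11 genes ran from 8.62 to 9.34 in the L-set wild type, 9.29 to 9.42 in L/L, 9.45 to 9.70 in the S-set wild type and 9.35 to 9.45 in S/S. Between the wild types 8 of the 11 were lower in the L set with an adjusted p under 0.05 (8.71% of all genes passed), with or without array 1 of the S-set wild type. Of 10 macrophage markers, all 10 lay above 0 in S/S (all genes 42.4%) and 9 had all S/S arrays above the wild type (all genes 5.49%), though none passed. Their median was 0.75, and 0.63 without array 1 of the S-set wild type, where 10 lay above 0 and 9 were separate. With fewer wild-type arrays non-overlap is easier to reach, and its share over all genes was not computed there. In L/L 9 of the 10 lay below 0, with a median of -0.34 and 0 separate from the wild type. The mean level of the 10 markers was 7.81 to 8.14 in the S-set wild type, 8.71 to 8.84 in S/S, 7.46 to 9.48 in the L-set wild type and 7.08 to 8.75 in L/L. All 10 read above the level of Y-linked genes in female cells on every array, the lowest being Ptprc with a mean of 6.37. Of 10 fibroblast markers, 9 lay below 0 in L/L with a median of -0.13, and 6 had all L/L arrays below the wild type (all genes 5.10%), though none passed. Between the wild types Thy1, a surface protein of fibroblasts, was lower in the L set by 0.49 (adjusted p = 0.0201), and Dcn, a matrix proteoglycan, was higher by 0.35 (adjusted p = 0.0452). Endothelial, epithelial and adipocyte markers had mean levels of 6.35 to 6.93, 6.66 to 7.10 and 6.22 to 6.65. Of the 6 endothelial markers 2 lay above 0 and 4 below in S/S, with a median of -0.09. The highest was Emcn, a surface sialoprotein, which read 6.70, 6.64 and 7.01 in the S-set wild type. It read 8.50, 8.21 and 8.48 in S/S, with no overlap (1.62, SE 0.41, adjusted p = 0.197). In the L set Emcn varied within the groups, at 9.06, 8.19 and 6.98 in the wild type and 9.05, 8.20 and 7.82 in L/L. Tek, a receptor for angiopoietins, was higher in the L-set wild type by 0.58 (adjusted p = 0.0134). The part of dividing cells, macrophages, endothelial cells or the fibroblast markers in the members' differences was not tested.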

How the data were processed

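Total RNA of 12 samples was measured on Affymetrix Mouse Gene 1.0 ST arrays. The authors made RMA values with Partek, per the series' design text. The deposited values run from 2.43 to 14.67, from which the log2 scale was read; the software version, the genome build and which arrays were normalized together are not given in the sources used here. Of 35556 probe sets, 21789 carry 1 gene symbol, 1621 several and 12146 none in the platform annotation; those with 1 symbol were used, and for the 999 genes with more than 1 probe set the one with the highest mean was kept. The Entrez identifiers of all 27 measured members were in the RefSeq gene table.

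The 4 group means were fitted over all 12 arrays with limma 3.58.1 in R 4.3.3 (lmFit and eBayes, no filter, 8 residual and 5.19 prior degrees of freedom). The tests were two-sided, with Benjamini-Hochberg adjustment over 19938 genes and a threshold of 0.05. The script was tested on simulated data. The number of arrays limits the precision. All measured members are named. Values on every array are given for members that passed in any comparison, for the 4 smallest p in each mutant and for the 4 largest differences between wild types; Insig1, Fads1, Ch25h, Emcn and ranges for a few others were added after their values were seen. In related lists, the genes that passed and the smallest p in each mutant are named. The marker lists covered fibroblasts, macrophages, endothelium, epithelium, adipocytes and proliferation. Members and lists were chosen with earlier results of these data known. Alternatives covered normalization, centring, a filter on dim genes, probe set choice, separate fits, a replicate block, array weights, the variance model, sex and leaving out each array. Promoter windows are from RefSeq, GRCm38.p6.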

Additional observations from a re-analysis of the deposited data

How the results depend on the processing

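No member passed in either mutant under any alternative except array weights, which ranged from 0.077 (array 1 of the S-set wild type) to 5.875 (array 2). With weights, 2 members passed in S/S (Cyp51 at -0.51 and Ebp at -0.49), 3 in L/L (Lbr, Ebp and Stard4) and 5 in the difference of effects, and the genes passing were 415, 336 and 293 of all genes against 24, 8 and 3. Between the wild types, weights gave 6520 genes, 13 members and a median of -0.076. Some members changed sign with weights and moved by at least the gene's residual SD in the main fit. These were Idi1 (-0.46) and Npc2 (-0.066) in S/S, Fdft1 (0.071) and Npc2 (-0.012) in the difference of effects, and Lbr (-0.10) between the wild types. Sign changes by less than that SD were seen for Insig1 (-0.068), Insig2 (-0.09), Stard4 (-0.136) and Npc1 (0.006) in S/S. Between the wild types they were seen for Fdps (-0.032), Insig1 (-0.068), Srebf1 (-0.041) and Stard4 (-0.13). Fitting each set alone gave 44 genes in S/S and 5 in L/L, and leaving out the male arrays gave 37 and 2, with 304 genes and 0 members between the wild types. Quantile normalization gave 7 genes for the difference of effects, and 6 members and 2564 genes between the wild types. The filter on dim genes gave 4 members between the wild types, with 1973 of the 14750 genes kept. Leaving out 1 array at a time gave 2 to 38 genes in S/S, 2 to 26 in L/L, 3 to 21 for the difference and 525 to 2078 between the wild types, where 0 to 5 members passed. The median of the members then ran from -0.217 to 0.069 in S/S and from -0.109 to 0.156 between the wild types; Insig2 in S/S ran from -0.237 (without array 1 of the S-set wild type) to 0.339. The cause of these shifts was not tested. In L/L 24 members lay above 0 under each of the 21 alternatives, with medians of 0.15 to 0.27. Many of these alternatives could not change the members' L/L differences. Those were leaving out an S-set array, separate fits, the filter on dim genes, the variance model and the replicate block. The replicate numbers were not taken as pairs: same-numbered arrays deviated together with r of 0.388, 0.475 and -0.122 in the S set and 0.601, 0.058 and 0.359 in the L set, and not every array correlated best with its own number. With the number as a replicate block, 37 genes passed in S/S, 5 in L/L and 3 in the difference, with 0 members in each.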
